A study of Ovis aries with 6 samples.

Results

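5 haemoglobin and erythroid genes were followed in single-cell RNA of the Hu sheep ovary: LOC101105185, LOC100134870, HBE1, ALAS2 and AHSP. They are 5 of the 30574 genes counted in each library. They were chosen by their UMI counts in earlier results of these libraries, which showed globin transcripts among cells rich in OXT, the gene of oxytocin, so their level in those cells is described here without a test. LOC101105185 is named haemoglobin subunit epsilon-2 and LOC100134870 beta-C globin in the study's gene descriptions. AHSP stands in the count tables under its gene number, LOC100127218. Barcodes with at least 30 UMI of OXT are called OXT-high, where a UMI is the identifier that marks a captured RNA molecule.

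Haemoglobin carries oxygen and is built from alpha-type and beta-type globin chains, each holding a haem. In red blood cell precursors ALAS2 catalyses the first step of haem synthesis, AHSP is the chaperone that binds free alpha globin, and transcription factors such as KLF1 and GATA1 drive the globin genes. Other cells make haem through ALAS1. HBE1 and epsilon-2 belong to the embryonic globins of the beta cluster, and beta-C is a beta globin of young and anaemic sheep. Oxytocin in the ruminant ovary is a known product of large luteal cells and of granulosa cells around ovulation.

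From 6 Hu ewes in oestrus, a single ovary per ewe was made into 1 library, 3 of the HLS group with a litter size of at least 3 and 3 of the LLS group with a litter size below 2. No ewe was treated. The ovary was taken whole and digested with collagenase and trypsin, and the suspension went through a lysis step before counting. The libraries held 52290 barcodes, with total counts from 43329214 UMI in LLS replicate 2 to 75549906 UMI in LLS replicate 1, and 36458 cells in 31 clusters were retained. Of 51993 distinct barcode sequences, 297 occurred in more than 1 library, but none of the OXT-high barcodes of LLS replicate 3 did. A cluster carries the ending -like on a name taken from its marker genes. The globins, the other erythroid genes and OXT took no part in the clustering, but OXT was among the 5 luteal markers used for naming. Intervals given below cover counting error only.

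LLS replicate 3 stood apart from the other libraries in the globins. LOC101105185 had 7188 UMI in that library, 4 UMI in HLS replicate 2 and 0 in the other 4 libraries. LOC100134870 had 6460 UMI there, 11 in HLS replicate 2 and 0 in the other 4. For these beta-type globins the library of LLS replicate 3 therefore overlapped with no other library of either group.

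HBE1 and AHSP were seen more widely and at lower levels. HBE1 counted 0, 33 and 74 UMI in HLS replicates 1, 2 and 3 and 6, 0 and 265 UMI in LLS replicates 1, 2 and 3. AHSP counted 28, 13 and 6 UMI in the HLS libraries and 13, 15 and 175 UMI in the LLS libraries, so that it was the member found in every ewe. ALAS2 had no UMI in any of the 52290 barcodes. Counting UMI takes each molecule once whatever its length, so length does not enter a comparison of the genes. The split of reads between near-identical globin copies remains uncertain, though. In CPM, the UMI count scaled to 1000000 UMI of the library, the order in LLS replicate 3 was LOC101105185 at 119, LOC100134870 at 107, HBE1 at 4.40 and AHSP at 2.91. The exact 95% counting intervals of neighbours in that order did not overlap. They take each UMI as independent, while a few barcodes held much of each count, so they do not settle the order of LOC101105185 and LOC100134870.

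**Figure D1:**
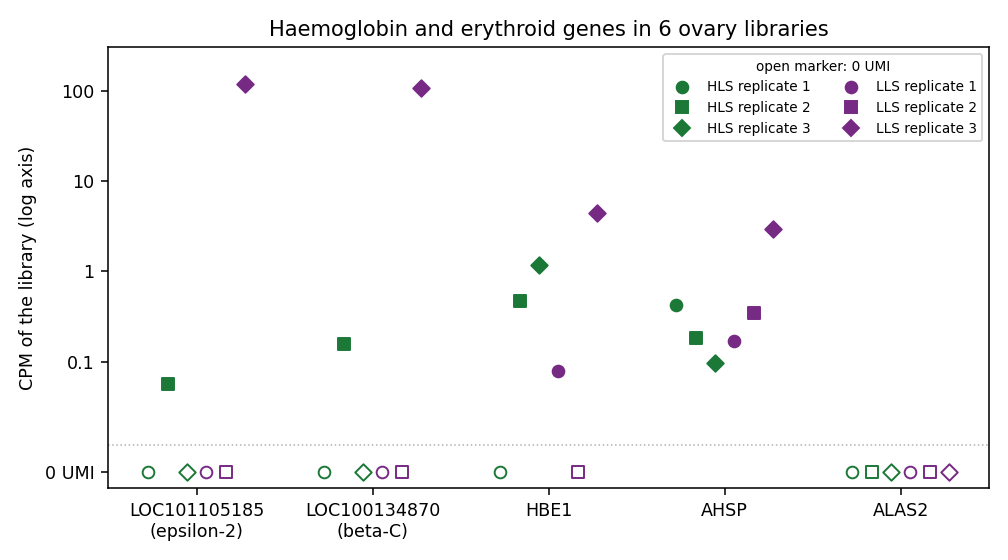
Level of the 5 genes in CPM of the library (log axis, open markers at the bottom for 0 UMI), with HLS ewes in green and LLS ewes in purple, 1 marker a library. LLS replicate 3 was highest for the 4 detected genes, reaching 119 for LOC101105185, and ALAS2 was at 0 in all 6 libraries.

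OXT-high barcodes were themselves a matter of LLS replicate 3. They numbered 2, 1 and 1 in HLS replicates 1, 2 and 3 and 5, 0 and 105 in LLS replicates 1, 2 and 3. Their share of barcodes was 0.0149% ± 0.00609 (SD, n = 3) in HLS and 0.420% ± 0.675 (SD, n = 3) in LLS, and the 2 groups overlapped. The two-sided exact permutation test over ewes gave p = 0.4, where 3 against 3 ewes allow no p below 0.1. Without LLS replicate 3 the difference of HLS minus LLS went from -0.406 to -0.0164 percentage points.

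The 105 OXT-high barcodes of LLS replicate 3 held most of the globin of the series. LOC101105185 had 6318 UMI in 79 of them (75.2%, exact 95% interval 65.9 to 83.1%), or 43.8 per 10000 UMI. LOC100134870 had 5866 UMI in 50 of them (47.6%, interval 37.8 to 57.6%), or 40.7 per 10000 UMI. HBE1 had 207 UMI in 43 barcodes (41.0%), or 1.43 per 10000, and 89 of the 105 barcodes had at least 1 UMI of the 3 globins. The 9 OXT-high barcodes of the other ewes, with 108388 UMI, held 0 UMI of every member, so the pooled share with LOC101105185 was 69.3% of 114 barcodes. A count of 0 in 9 barcodes leaves room for a large share, and HLS could not be tested against LLS at this limit, as no HLS ewe had 3 such barcodes. At a limit of 10 OXT UMI the 3 globins came to 0 per 10000 UMI in HLS (n = 2) and 27.98 ± 48.5 (SD, n = 3) in LLS. A permutation test over ewes cannot decide here, and no p is given. Only LLS replicate 3 held globin in these barcodes, so every regrouping of the ewes gives a difference at least as large.

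The OXT-high barcodes were deep, with a median of 9548 UMI against 4768 UMI in barcodes of the same ewe without OXT, of which 4.78% held LOC101105185. With every barcode thinned to 1000 UMI, the expected share of the OXT-high barcodes of LLS replicate 3 with a UMI was 54.6% for LOC101105185, 31.3% for LOC100134870, 11.4% for HBE1 and 8.87% for AHSP. By total UMI in these barcodes OXT ranked 1, LOC101105185 ranked 12 and LOC100134870 ranked 18 of 14562 detected genes. Against the other barcodes of the ewe, 4 of the 4 members with at least 10 UMI were over 2-fold higher, as were 11.2% of 18193 genes, while 0 of the 4 and 27.0% of all genes were over 2-fold lower. This contrast chose the members, and nothing is read from the count.

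The level differed widely from barcode to barcode. For LOC101105185 the median was 9 UMI, the quartiles were 1 and 41 UMI and the highest barcode had 805 UMI. For LOC100134870 the median was 0, the upper quartile was 10 and the highest barcode had 909 UMI. The 10 barcodes highest for each gene held 60.3% of its UMI for LOC101105185 and 75.4% for LOC100134870, so a minority of barcodes carried most transcripts. The same held for HBE1 and AHSP, with 59.9% and 65.8% of their UMI in the 10 highest barcodes.

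Over the 105 barcodes the levels of epsilon-2 and beta-C were nearly unrelated, with a Spearman rho of 0.107. With at least 10 UMI as the limit, 37 barcodes held LOC101105185 alone, 14 held LOC100134870 alone, 14 held both and 40 neither. Among the 31 barcodes with at least 100 UMI of the pair together, beta-C made up under 10% in 15 barcodes and over 90% in 9. Its share lay between these in 7, and 10 of the 31 held no beta-C at all. These 31 were chosen by that sum, so their shares do not show that the genes exclude each other. The barcode highest for LOC101105185, with 805 UMI, also held 528 UMI of LOC100134870 and 1590 UMI of OXT. The barcode highest for LOC100134870, with 909 UMI, held 28 UMI of LOC101105185 and 150 of OXT. It was the only barcode of the series over 5% globin, the limit above which the authors removed cells, at 5.66% of its UMI.

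**Figure D2:**
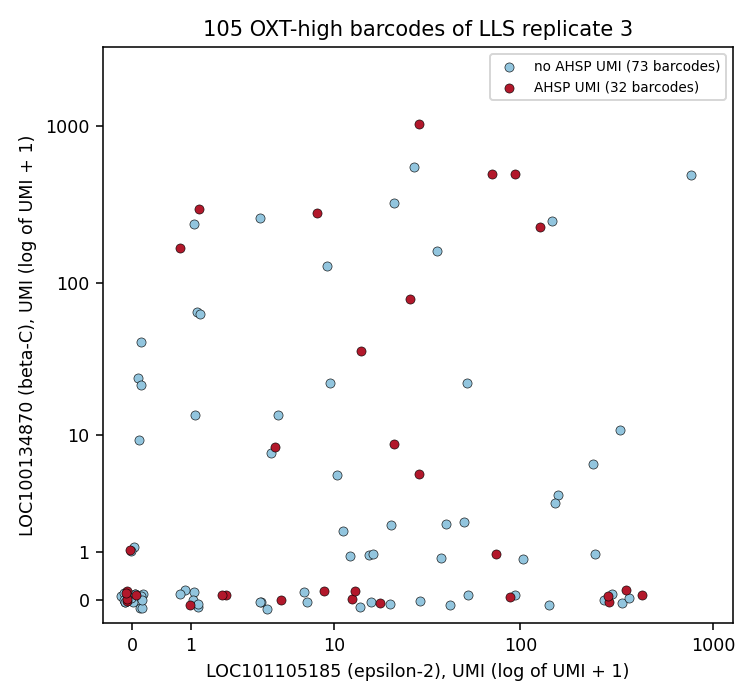
Each point is 1 of the 105 OXT-high barcodes of LLS replicate 3, with UMI of LOC101105185 on the horizontal axis and of LOC100134870 on the vertical axis (both as the log of UMI + 1, points jittered), coloured by whether AHSP was detected. Points lie along both axes as well as between them, and the 32 barcodes with AHSP are spread over the plot.

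AHSP was present beside the globins and ALAS2 was not. AHSP had 149 UMI in 32 of the 105 barcodes (30.5%, interval 21.9 to 40.2%), with at most 22 UMI in a barcode. This came to 1.03 per 10000 UMI and to 12.0 UMI per 1000 UMI of the 3 globins. ALAS2 had 0 UMI in the 105 barcodes, and a count of 0 in 1442619 UMI allows up to 0.0208 per 10000.

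AHSP was found in like shares of barcodes with and without abundant beta-type globin. Of the 65 barcodes with at least 10 UMI of LOC101105185 or LOC100134870, 20 held AHSP, and of the 40 barcodes below that limit for both, 12 did. Per 10000 UMI its level was 1.23 in the former and 0.642 in the latter, and their median depths were 11239 and 6220.5 UMI. With HBE1 its Spearman rho over the 105 barcodes was 0.357, against -0.02 with LOC101105185 and -0.00129 with LOC100134870. The barcodes share a library, and both HBE1 and AHSP also went with the depth of the barcode (rho = 0.237 and 0.188). In 3 barcodes AHSP was found without any of the 3 globins. The 2 barcodes named above held no AHSP UMI (highest for LOC101105185) and 9 AHSP UMI (highest for LOC100134870).

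Few UMI were counted for the partner chains of a haemoglobin molecule. LOC114110673 and LOC101108797, which lie between HBM and HBQ1 in the gene order of the RefSeq annotation of assembly ARS-UI_Ramb_v3.0, where the adult alpha globins are found, had 7 and 3 UMI in the OXT-high barcodes of LLS replicate 3. The adult beta gene HBB had 121 UMI in 6 of these barcodes, of which 115 came from 1 barcode. Of the 14 globin loci listed, 6 had 0 UMI there, among them HBM and HBQ1. Globin genes are near-identical copies in places and HBQ1 overlaps LOC101108797 in that annotation, so the split of reads between such copies is uncertain. Low counts at these loci therefore do not show that the alpha chains were absent.

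Of the other red blood cell genes, many had no UMI in the OXT-high barcodes, as did 16012 of all 30574 genes. Of the 5 red blood cell markers counted, SLC4A1 (band 3, the anion exchanger of the red cell membrane), HEMGN, KLF1 and ALAS2 had 0 UMI, and AHSP was the exception. SLC4A1, HEMGN and ALAS2 also had 0 UMI in the other barcodes of the ewe and KLF1 had 5. Of 22 erythroid membrane and enzyme genes, 12 had 0 UMI, among them EPB42, RHAG and CA1. Among the 12 of this list with at least 10 UMI in the ewe, 3 were over 2-fold higher than in the other barcodes and 4 over 2-fold lower, with a median log2 ratio of -0.47. The median over all 18193 genes was -0.36. The 3 higher genes were BLVRB (biliverdin reductase B, 111 against 50.3 CPM), TFRC (the transferrin receptor, 48.5 against 20.1) and BPGM (15.3 against 4.43), and EPB41 was lower in the OXT-high barcodes, with 49 UMI in 33 of them.

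Erythroid transcription factors gave few counts in either set of barcodes, apart from TAL1, LMO2 and ZFPM1. KLF1, GATA1, TAL1, NFE2 and GFI1B had 0 UMI in the 105 barcodes, which is 5 of 8 genes, beside the 16012 of 30574 over all genes. In the other barcodes of the ewe GATA1 and GFI1B also had 0 UMI, KLF1 had 5, NFE2 had 22 and TAL1 had 298. LMO2, which blood vessel cells also express, had 13.9 CPM in the OXT-high barcodes and 185 in the others. EPOR, the erythropoietin receptor, is counted among the 8 though it is no transcription factor, and had 2 UMI.

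The general genes of haem synthesis on the list were all detected. Of 9 genes, 4 were over 2-fold higher in the OXT-high barcodes than in the other barcodes of the ewe and none was over 2-fold lower, with a median log2 ratio of 0.69. Over all 18193 genes 11.2% were higher and 27.0% lower by that limit, with a median of -0.36. ALAS1, the housekeeping form of the enzyme that ALAS2 encodes in red cells, had 71.4 CPM against 28.6. UROD and CPOX, which act later in the same path, had 39.5 against 17.7 and 32.6 against 14.8 CPM. FECH, which inserts iron, had 13.2 against 16.0. These are values of 1 library without a replicate.

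**Figure D3:**
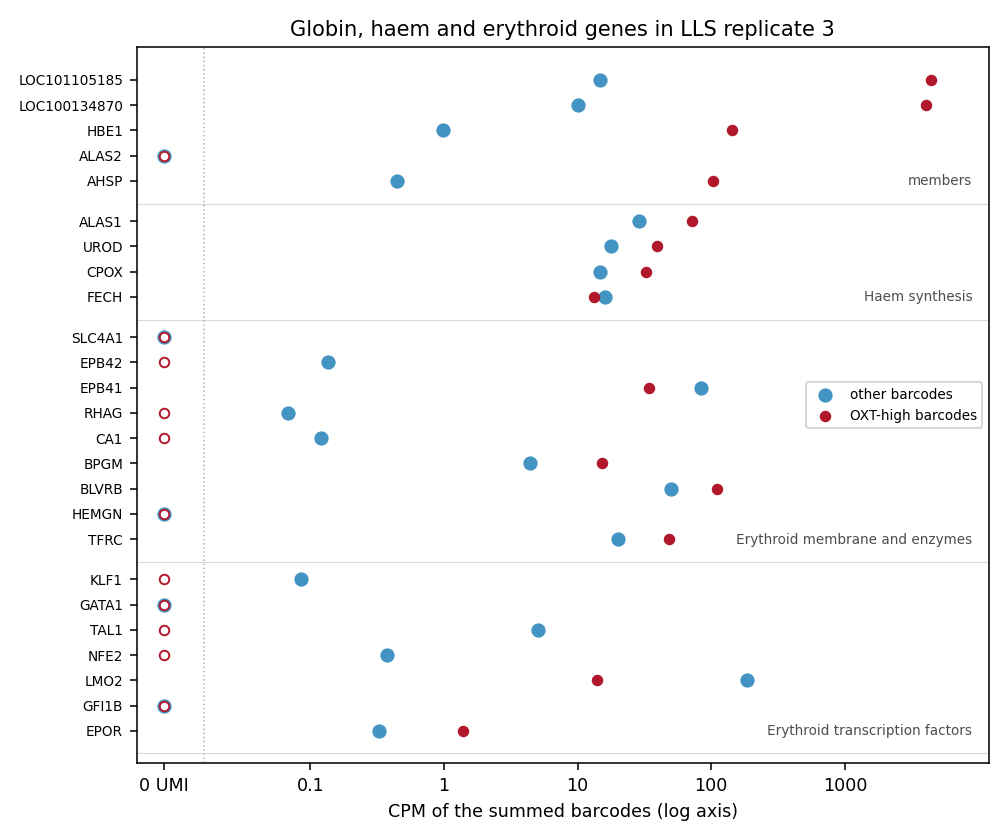
CPM (log axis, open markers for 0 UMI) of the 5 members and of the genes of 3 lists named in the text, in LLS replicate 3, summed over the 105 OXT-high barcodes (red) and over the other barcodes (blue). The 4 detected members lie furthest to the right of their blue points, ALAS1 lies at 71.4 against 28.6, and ALAS2, SLC4A1, HEMGN and GATA1 are at 0 in both.

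No library held barcodes that could serve as a red blood cell reference. Barcodes with over 5% globin and fewer than 30 OXT UMI numbered 0 in all 6 libraries. Over 1% globin was reached by 49 barcodes of LLS replicate 3, of which 14 had fewer than 30 OXT UMI, and by 0 barcodes elsewhere. The highest globin share of a barcode in the other 5 libraries lay between 0.176% and 0.290%.

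Many of the luteal and steroid-making genes listed were higher in the OXT-high barcodes, and some were lower. Of the 105 OXT-high barcodes of LLS replicate 3, 89 fell into a luteal-like cluster of 108 cells, of which 106 came from that library. That name rested on OXT together with CYP11A1, HSD3B1, PTGFR and STAR, so it is not independent of the choice of barcodes by OXT. It also differs from the study, which reported finding no luteal cells and lists OXT and the globins in its atretic granulosa subtype. CYP11A1 and HSD3B1, enzymes of progesterone synthesis, were found in 92 and 80 of the 105 barcodes, and PTGFR, the prostaglandin F receptor of luteal cells, in 75. STAR, the cholesterol carrier, had 18 UMI in 9 barcodes. Of the 12 luteal and steroid-making genes counted, 8 were over 2-fold higher than in the other barcodes and 1 was over 2-fold lower. Over all genes 11.2% were higher and 27.0% lower by that limit. CYP17A1 was the lower gene, at 6.93 against 68.3 CPM. LHCGR was at 96.4 against 171 CPM, in 16 of the 105 barcodes. Of 8 granulosa markers, FSHR and CYP19 had 0 UMI, 4 were over 2-fold lower and INHA, the inhibin alpha chain, was over 2-fold higher at 79.7 against 24.96 CPM. CYP19 had only 32 UMI in the other barcodes. All 17 genes that the study lists beside the globins in its atretic granulosa subtype were over 2-fold higher than in the other barcodes, but the study chose that list on these ewes and it is no independent evidence.

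Markers of most other cell types were lower, as were 27.0% of all genes. The 8 endothelial markers summed to 104 CPM in the OXT-high barcodes and to 2041 in the others, and all 8 were over 2-fold lower. The 6 stromal and 6 perivascular markers were also all over 2-fold lower. Of 8 immune markers 7 were over 2-fold lower and 4 were at 0, with PTPRC, a gene of the study's list, higher at 88.7 against 18.5 CPM. Of 4 epithelial markers 3 were over 2-fold lower, but the keratin KRT18 was higher at 255 against 14.6 CPM, with 368 UMI in 25 barcodes. Of 5 B cell markers, 4 had at least 10 UMI in the ewe, and none of these passed 2-fold once a pseudocount of 1 CPM was added. JCHAIN, at 9.01 against 4.34 CPM, stayed below that limit only through the pseudocount. In the OXT-high barcodes 3 of the 5 had 0 UMI.

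Cells just below the OXT limit held globin too. In LLS replicate 3 the 9 barcodes with 20 to 29 OXT UMI held 200 UMI of LOC101105185 in 7 barcodes and 20 of LOC100134870 in 3. The 6 barcodes with 30 to 39 OXT UMI held 100 UMI in 3 barcodes and 450 UMI in 2. Of these, 88 and 449 UMI came from 1 deep barcode with 26539 UMI, so this bin rests on that barcode. Below 2 OXT UMI, LOC101105185 was at 0.0755 per 10000 UMI in barcodes without OXT and at 0.0704 in barcodes with 1 OXT UMI. The level rose to 1.05 at 2 to 9 OXT UMI and to 8.65 at 10 to 19. From 20 OXT UMI on the level followed no steady order with OXT. It was 132 per 10000 in the 9 barcodes with 20 to 29 OXT UMI, 10.8 at 30 to 39 and 17.0 at 40 to 99. It was 58.6 and 53.5 in the bins from 100 and from 300 OXT UMI (35 and 29 barcodes), and 36.1 in the 14 barcodes with at least 1000. Over the 105 OXT-high barcodes, which share a library, the Spearman rho of LOC101105185 with OXT was 0.115. The share of barcodes with LOC101105185 was 4.78% without OXT, 11.1% at 2 to 9 OXT UMI, 37.5% at 10 to 19, 77.8% at 20 to 29 and 50% at 30 to 39. It was 66.7% at 40 to 99 OXT UMI, then 74.3% and 82.8% in the next 2 bins, and 85.7% from 1000. Depth differed between the bins as well. Its median was 4768 UMI without OXT, 1339.5 at 10 to 19 OXT UMI and 1497 at 20 to 29. From 40 OXT UMI on it was 2733, 5478, 18296 and 30541 UMI by bin. The part of depth in these shares was not tested.

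By pooled level, the luteal-like cells below the limit were not poorer in epsilon-2. The 17 luteal-like cells of LLS replicate 3 with fewer than 30 OXT UMI held LOC101105185 at 111 per 10000 UMI and LOC100134870 at 33.8, in shallow barcodes with a median of 1406 UMI. Of their epsilon-2 and beta-C UMI, beta-C made up 23.3%, against 48.1% in the OXT-high barcodes. HBE1 was at 1.42 per 10000 in the 17 cells and AHSP had 2 UMI. These pooled values rest on few cells. LOC101105185 was found in 9 of the 17 (52.9%, exact 95% interval 27.8 to 77.0%), and 1 cell held 104 of its 312 UMI. For LOC100134870, 1 cell held 48 of 95 UMI.

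Cell quality varied among the OXT-high barcodes. Mitochondrial UMI were under 1% in 47 of the 105 barcodes, a share far below the 4.37% median of barcodes without OXT in that ewe. In these 47 LOC101105185 was at 66.6 and LOC100134870 at 61.3 per 10000 UMI, against 35.9 and 33.6 in the other 58, while the share of barcodes with LOC101105185 was 76.6% and 74.1%. Of the 2265 LOC100134870 UMI in the 47 barcodes, 1 barcode held 909. The median depth was 6193 UMI in the 47 and 19216.5 UMI in the 58. The parts of low mitochondrial content and of depth in the globin level were not tested. The 8 barcodes called doublets held LOC101105185 at 23.2 and LOC100134870 at 0.448 per 10000, and the 97 others held 46.7 and 46.3, so the globin level was higher without the doublets.

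In most other barcodes of LLS replicate 3 that held them, the beta-type globins were seen as single molecules. Of 8653 barcodes with fewer than 30 OXT UMI, 437 held LOC101105185, 398 of them exactly 1 UMI, and 455 held LOC100134870, 429 of them exactly 1 UMI. A few barcodes held much of the total, though. For LOC101105185, 11 barcodes with at least 10 UMI held 388 of 870 UMI, and for LOC100134870, 4 such barcodes held 103 of 594. Of these, 7 and 3 barcodes were luteal-like cells. Across 8 large classes outside the luteal-like cells, 4.05 to 6.47 UMI of LOC101105185 and 4.67 to 6.71 UMI of LOC100134870 were found per 100 barcodes. Barcodes that were not retained held 10.98 and 6.43 per 100. The median depth of the 8 classes ran from 2188 to 12444 UMI, so their count per barcode varied little where depth varied a great deal. Endothelial-like cells held LOC101105185 at 0.0827 per 10000 UMI.

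In 8 large classes outside the luteal-like cells the ratio of the 2 globins was close to that of the OXT-high barcodes. Beta-C made up 48.1% of epsilon-2 and beta-C UMI in the OXT-high barcodes (interval 47.3 to 49.0%) and 51.0% in the other retained cells (interval 47.4 to 54.6%). In these 8 classes, which leave out the small epithelial-like, B cell-like and Schwann-like ones, it ran from 46.0% in perivascular-like to 54.3% in cluster 4 cells. Each interval held 48.1%, but most were wide, so this is a weak check. The narrowest was 46.5 to 56.4% in endothelial-like cells, and in granulosa-like cells it was 36.6 to 71.2%. Barcodes that were not retained had a beta-C share of 36.9%, with an interval from 31.3 to 42.8% that left out 48.1%. That interval takes each UMI as independent, but the not-retained barcode highest for epsilon-2 held 37 of the 181 UMI of that gene. No not-retained barcode held more than 38 UMI of the globins followed, so that barcode held almost no beta-C. The low share rests in part on that barcode and does not show a different ratio. Whether these scattered UMI came from the cells they were counted in was not tested.

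**Figure D4:**
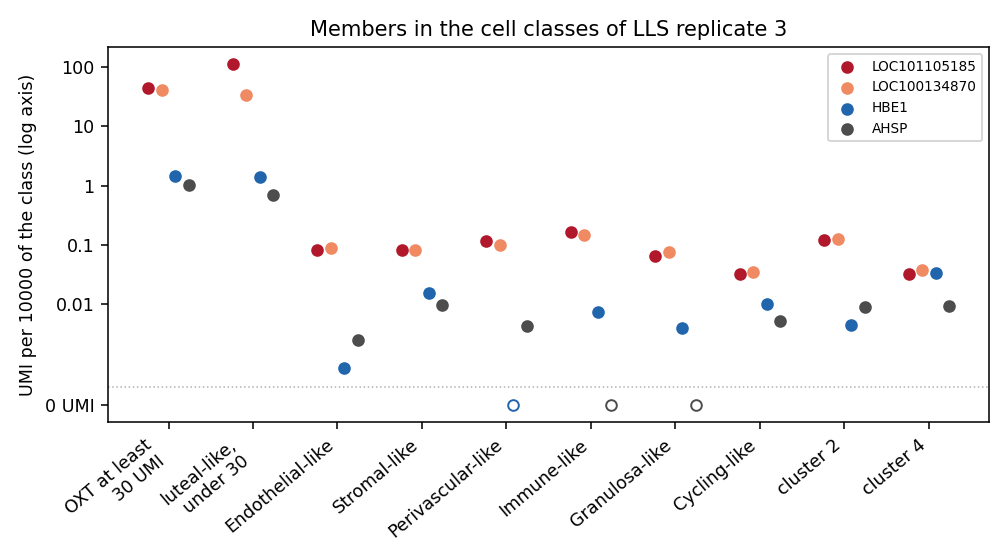
UMI per 10000 UMI of the class (log axis, open markers for 0 UMI) of 4 members in 10 classes of LLS replicate 3. LOC101105185 and LOC100134870 lie side by side below 0.2 in all classes except the OXT-high barcodes, at 43.8 and 40.7, and the luteal-like cells with fewer than 30 OXT UMI, at 111 and 33.8.

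HBE1 was also counted in a class where, outside LLS replicate 3, LOC101105185 and LOC100134870 had 1 and 0 UMI. Outside LLS replicate 3 it had 113 UMI, of which 71 came from 67 of the 1327 cells of cluster 4. That cluster of 1847 cells was led by LHCGR, GSTA1, CYP17A1 and INSL3. Of these, GSTA1 is on the granulosa list, and the others are a receptor, an enzyme and a hormone of theca cells. Its best-scoring class was theca. The theca list held only 2 markers, fewer than the naming rule asked for, so the cluster was left unnamed. In it HBE1 was found in 0 of 285, 25 of 395 and 39 of 408 cells of HLS replicates 1, 2 and 3. In LLS replicates 1, 2 and 3 it was found in 3 of 79, 0 of 160 and 20 of 519 cells. Of the 4 ewes with HBE1 in cluster 4, HLS replicate 3 was highest at 9.56% of cells (interval 6.89 to 12.8%), and HLS replicate 1 and LLS replicate 2 had none, where a count of 0 allows up to 3 cells.

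Per 10000 UMI the HBE1 level of cluster 4 was 0.0429 in HLS replicate 2, 0.0624 in HLS replicate 3, 0.0279 in LLS replicate 1 and 0.0341 in LLS replicate 3. The 11593 endothelial-like cells of the 5 libraries other than LLS replicate 3, with 126252139 UMI in all, held 1 UMI of HBE1. No test is given for a cluster against the rest. Cells with HBE1 in the 5 libraries held 1 UMI in 105 of 109 barcodes, and none held more than 2. In LLS replicate 3 HBE1 in cluster 4 was as low as in the other ewes and lay far below the 1.43 per 10000 of the OXT-high barcodes. Cluster 4 cells were deep, with a median depth from 10496 to 16857 UMI by library, and the part of depth in the share of cells was not tested.

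**Figure D5:**
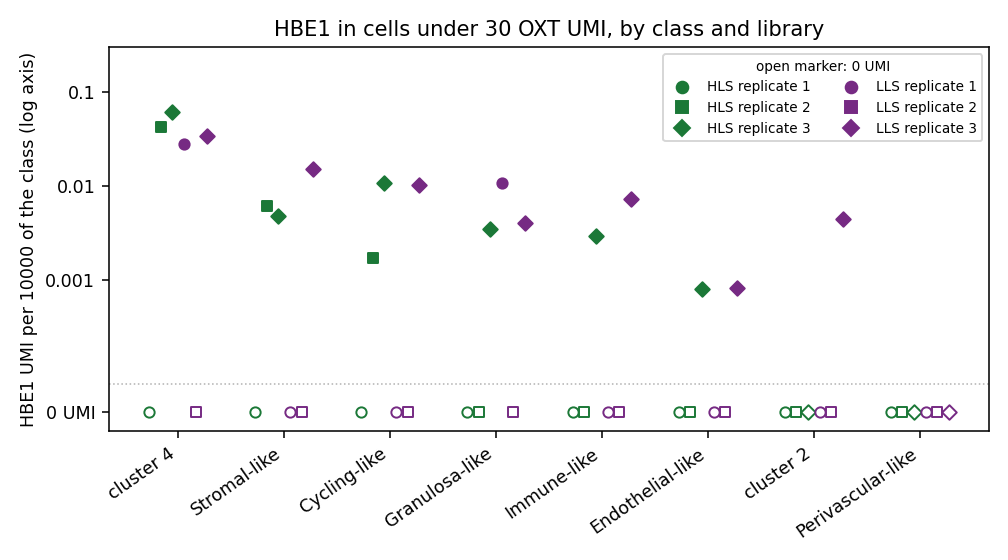
HBE1 per 10000 UMI of the class (log axis, open markers for 0 UMI) in cells with fewer than 30 OXT UMI, by class and library. The luteal-like cells of LLS replicate 3 are not drawn. Among the 8 classes drawn, cluster 4 lies highest in each of the 4 libraries with HBE1 there, from 0.0279 to 0.0624, and 2 libraries are at 0 in every class drawn.

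AHSP outside the OXT-high barcodes was thin. It had 75 UMI in 74 barcodes of the 5 other libraries and 26 UMI in 24 barcodes of LLS replicate 3. Over the 6 ewes its mean level was 0.00181 ± 0.000838 per 10000 UMI (SD, n = 6) in endothelial-like cells, 0.00536 ± 0.00413 in cluster 4 and 0.00591 ± 0.00376 in cluster 2. Cluster 2 was led by LOC105612294 and CDR1, with ACTG2, ACTA2 and CNN1 further down. Its best-scoring class was stromal, but it was left unnamed. The 17 luteal-like cells of LLS replicate 3 below the OXT limit held AHSP at 0.712, from 2 UMI in 1 barcode. The ranges of the first 3 classes over ewes overlapped, and every class mean rested on few UMI per ewe.

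Between HLS and LLS, the question the groups were formed for, no member passed the test. With UMI summed over all barcodes of an ewe, edgeR's quasi-likelihood test left 18443 genes after its filter on low counts, among them HBE1 and AHSP, and called 0 of these 2 members and 0% of all genes at a Benjamini-Hochberg adjusted p under 0.05. Unadjusted p fell under 0.05 for 579 genes, and DESeq2 called 67 genes (0.363%), again with 0 of the 2 members. HBE1 had a log2 fold change of HLS over LLS of -1.44 (SE 1.88, adjusted p = 0.9996), and AHSP of -2.06 (SE 1.15, adjusted p = 0.9996). Both directions rested on LLS replicate 3: without it the values were 3.49 for HBE1 and 0.12 for AHSP. Without the OXT-high barcodes they were 0.61 and -0.22.

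In sums over a library, more cells of a type and more RNA per cell cannot be told apart. LOC101105185 and LOC100134870 did not pass the filter on low counts, because a single library held them, and ALAS2 had nothing to test. In sums by cell type none of the 5 members passed the filter in any of 8 types. Over these types edgeR called 0% of the 79189 genes tested, with 2815 at an unadjusted p under 0.05 and 36 called by DESeq2. The unnamed clusters 2 and 4 and the luteal-like cells were not among these types. HBE1 was therefore not tested between HLS and LLS in cluster 4. With no filter on low counts, both beta-type globins were called in immune-like cells (adjusted p = 0.000476 and 0.00202), where 0.813% of 19933 genes were called. All their UMI there came from LLS replicate 3, with 23 UMI of LOC101105185 and 20 of LOC100134870 in its 390 immune-like cells and 0 in the 5 other libraries. The calls thus describe 1 ewe and not a group.

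In pattern, other members were among the genes nearest to each detected member. Over 65 sums of 13 classes by ewe, the log2 level of LOC101105185 was most like that of LOC100134870 (Pearson r = 0.989), followed by LOC121820320 (r = 0.875), AHSP (r = 0.823), OXT (r = 0.821) and HBE1 (r = 0.809). The genes most like HBE1 were AHSP (r = 0.873), LOC121820320 (r = 0.861), LOC101122142 and CDHR5. Those most like AHSP were LOC121820320 (r = 0.926), HBE1 and CA13 (r = 0.838). The sums share libraries, and the high points are the OXT-high and luteal-like cells of LLS replicate 3, so these values describe that ewe. The members were chosen by their counts in such cells, so their likeness to each other and to OXT is no independent evidence.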

How the data were processed

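Reads had been aligned by the authors in Cell Ranger 5.0.0 (STAR), who deposited raw UMI counts per gene and barcode. The genome build is not given in the sources used here, so no coordinates or sequences are given. The members and lists were chosen with earlier results of these data known. All 52290 barcodes entered the OXT comparison. Cells for classes passed the authors' limits (200 genes, 1000 UMI, complexity 0.7, 10% mitochondrial UMI), without their 5% haemoglobin limit. Doublets (2007) were called from simulated neighbours in place of DoubletFinder. Counts were scaled and log-transformed, and 2000 variable genes without the globin and erythroid genes and OXT gave 30 principal components and clusters at a resolution of 0.8 (leidenalg 0.10.2, Python 3.11.15).

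Sums per ewe entered a quasi-likelihood fit in edgeR 4.0.16 (R 4.3.3), HLS against LLS, and DESeq2 1.42.0 was an alternative. On simulated sums of the 18443 whole-library genes, 200 genes were changed 2-fold or 4-fold. Of all 200, 28.5% were recovered, and of those changed 4-fold 53%, so most 2-fold changes were missed. Shares have exact (Clopper-Pearson) 95% intervals, and a count of 0 allows up to 3. The genes named are the 5 members, the other globin loci and fixed lists. Some listed genes are counted but not reported here by name. Ratios between barcodes are on the log2 scale of CPM plus a pseudocount of 1. Alternatives were other OXT limits, thinning, other scaling, no filter, a replicate block and each ewe left out. Ewes are separate animals, 1 library each.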

Additional observations from a re-analysis of the deposited data

How the results depend on the processing

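The main limit is that 1 ewe held the signal. Without LLS replicate 3 the pooled share of OXT-high barcodes with a UMI was 0% for the 4 detected members, while leaving out any other ewe gave 69.3 to 72.5% for LOC101105185, 43.9 to 45.9% for LOC100134870, 37.7 to 39.4% for HBE1 and 28.1 to 29.4% for AHSP. LOC101105185 was found in 56.8% of barcodes with at least 10 OXT UMI and in 78.5% with at least 100. With barcodes thinned to 1000 UMI the shares were 51.1%, 29.3%, 10.7% and 8.31% for LOC101105185, LOC100134870, HBE1 and AHSP. The globin level of OXT-high barcodes, as a mean over LLS ewes with at least 3 of them, was 42.9 per 10000 UMI and ran from 0 to 85.9 with an ewe left out. The 5 alternatives for the share of OXT-high barcodes other than leaving out an ewe kept the direction. None of them could pass the threshold, as 3 against 3 ewes allow no permutation p below 0.1. ALAS2 was at 0 under every alternative run.

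In whole-library sums DESeq2 called 67 genes where edgeR called 0. In cell type sums DESeq2 called 36 genes, no filter on low counts 234, and leaving out an ewe 0 to 4. With the replicate number as a block, 0 genes were called in whole-library sums and 3 in cell type sums. The labels share only a number, and same-numbered ewes correlated at -0.0573, -0.32 and 0.0289. Ewes of unlike number ran from -0.392 to 0.476. These values show no pairing by number but cannot exclude it. With an ewe left out, the log2 fold change ran from -2.58 to 3.49 for HBE1 and from -3.00 to 0.12 for AHSP, both turning positive without LLS replicate 3, and HBE1 also turned to 0.61 without OXT-high barcodes. The cause of these changes with the tool, the filter and the block was not tested. The 9 OXT-high barcodes of the other ewes limit what their counts of 0 can show.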

Other observations

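The alpha-type locus LOC114110673 was spread over other cells than the beta-type members. It had 268 UMI in all, of which 25 came from LLS replicate 3 and 107 from HLS replicate 3. In HLS replicate 3, 63 of these UMI lay in 20 of 891 granulosa-like cells (0.0732 per 10000 UMI), and the granulosa-like cells of the other 5 ewes held 1 to 9 UMI each. In LLS replicate 2, 22 UMI lay in 9 of 259 B cell-like cells. HBQ1, which overlaps LOC101108797, had 1148 UMI in 1093 barcodes, the most widely detected globin locus, with at most 3 UMI in a barcode and 0 in the OXT-high barcodes of LLS replicate 3. These values were noticed after the data were seen and were not tested.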
